A study of Xenopus tropicalis with 40 samples.

Results

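The proteins of the large ribosomal subunit are encoded in the western clawed frog Xenopus tropicalis by one family of genes, and the splice variants and alternative first exons assembled at these genes in embryos are described here. The members were all genes with a symbol of the rpl or rplp series and at least 1 transcript model on their own strand in a deposited catalogue of transcripts. The rule used the symbol and no measured value, but it was set with earlier results of these data known. There were 46 such genes with 805 sense models, of 8329 annotated genes with 80449 sense models in the catalogue. The 46 include 3 paralogs outside the core set, rpl3l, rpl7l1 and rpl22l1. RefSeq lists 49 symbols of this series, and the other 3 were not analysed here.

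The study sequenced polyA-selected RNA of whole outbred embryos, in libraries that kept the strand of the RNA by dUTP marking. The 40 libraries cover 23 stages, from the 2-cell embryo to the tadpole of stages 44 to 45, with 16 libraries of clutch 1 and 24 of clutch 2. The labels name no treatment or mutation, and they tell libraries apart by stage, clutch and, for some of the same stage and clutch, a set number. The catalogue pools all libraries, so it has no replicates, no value for a stage or clutch and no known depth, and no test was possible on any value below.

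The large subunit joins amino acids into protein. Its proteins fold around the ribosomal RNA, line the tunnel through which the new chain leaves, and form the stalks that bind translation factors and move transfer RNA. Their mRNAs are among the most abundant of a growing cell, and in vertebrates they typically start with a pyrimidine-rich stretch through which the cell controls their translation. Many of these genes hold small nucleolar RNAs (snoRNAs), the guides for chemical marks on ribosomal RNA, within their introns. In several species some ribosomal proteins act on the splicing of their own transcripts.

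The large-subunit genes carried many assembled variants. They had a median of 14 multi-exon isoforms, meaning assembled transcripts with at least 2 exons, with quartiles of 8.25 and 20.75 and a range of 1 to 91. Over all 7410 annotated genes with such an isoform the median was 6. At least 10 isoforms were assembled at 33 of the 46 genes, or 71.7%, against a background of 31.4% of all annotated genes. The 26 small-subunit genes had a median of 10.5, and the 45 genes for mitochondrial ribosomal proteins, which serve a separate ribosome, had a median of 3.

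The most isoforms belonged to rpl13a, whose protein in human cells can also leave the ribosome and silence mRNAs, with 91. Next came rpl7a with 50. Then 3 genes had 39 isoforms each: rpl3, whose protein reaches into the catalytic centre, rpl4, whose protein lines the exit tunnel, and rpl37. The top 10 were completed by rpl17 with 36, rpl27a with 27, rpl11 and rpl36a with 25 each, and rplp0 with 24. At the other end rpl14 and rpl39 had 2 isoforms each, and rpl34 and rpl38 had 3. Among the paralogs, rpl3l, which is expressed in muscle in mammals, had 5 isoforms, rpl7l1 had 4 and rpl22l1 had 1.

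**Figure D1:**
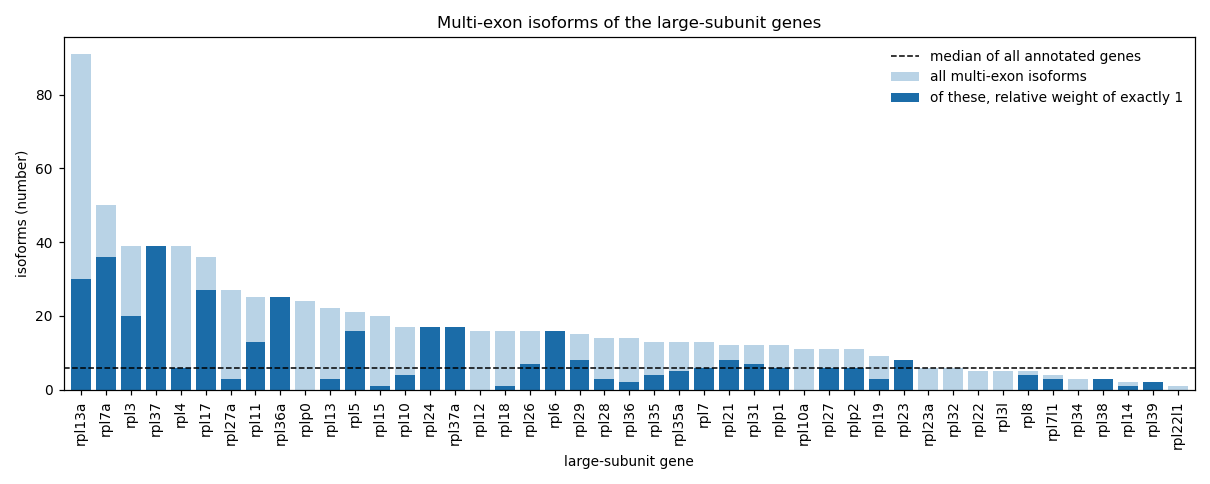
Bars give the number of multi-exon isoforms (vertical axis) of each large-subunit gene (horizontal axis), and the dark part gives those whose relative weight, a deposited score, is exactly 1; 45 of the 46 genes are drawn. The gene rpl13a stands highest with 91 isoforms, and 33 of 46 genes have at least 10, while the dashed line marks the median of 6 over all annotated genes.

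Each of the 803 isoforms of these genes had its own chain of splice junctions. Only rpl23a, whose protein sits at the rim of the exit tunnel, had an assembled transcript with exactly the annotated chain, which is 2.17% of the 46 genes against 13.8% of all annotated genes. Counting models taken over from the annotation as well, 2 genes (rpl32 and rpl23a) or 4.35% had that chain, against 36.5%. The isoforms used 941 distinct introns, of which 424 occurred in 1 transcript alone (45.1%, and 36.4% over all genes). No gene of the family was present as an annotated model only.

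The assembled models were short. Their median length was 695 bases, against 2424 over all genes, with a median first exon of 52 bases against 164 and a median last exon of 176 bases against 699. A first exon of 10 bases or less opened 162 of the 803 isoforms, or 20.2%, against 8.75% over all genes. In rpl10 the first exon had a median of 13 bases, and in rpl7a the last exon had a median of 11 bases. The gene rplp0 differed from this, with last exons of 1795 to 1888 bases and isoforms of 2230 to 2921 bases. A first exon below is therefore the 5' end of an assembled model; whether transcription starts there was not tested.

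A core intron is 1 spliced by at least 50% of the transcripts that span it, with at least 2 spanning it. The 45 genes with at least 2 multi-exon transcripts had 273 core introns. Their median was 5 per gene, against 8 over all annotated genes with at least 2 such transcripts. The most were at rpl35 with 25 and rpl11 with 21, where some models had far more exons than the median isoform, as described below. In 21 of the 45 genes no model spliced every core intron of its gene. Among these were rpl3 with 10 core introns, rpl4 with 9, and rpl7a and rplp0 with 8 each. First exons that lead to 1 acceptor each have their own intron, and 1 model can splice only 1 of these. At rpl24 the models lie on 2 scaffolds, so no model could splice all its core introns. The count therefore does not measure incomplete splicing, and the same count over all annotated genes was not made.

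A form was called recurrent when at least 2 transcripts held it, and the shares below are of the same 45 genes, beside 7285 annotated genes that met the same condition. At least 2 separate recurrent first exons were found in 31 genes, or 68.9% (Wilson 95% interval 54.3 to 80.5), against 32.5% of all annotated genes. A recurrent skipped exon was found in 19 genes, or 42.2%, against 27.8%. A recurrent alternative 5' splice site was found in 19 genes, or 42.2%, against 21.7%, and a recurrent alternative 3' splice site in 22 genes, or 48.9%, against 27.9%. A recurrent retained intron was found in 7 genes, or 15.6%, against 11.6%, but the family lay below the background with 1 transcript enough for each form (26.7% against 28.8%) and among transcripts of relative weight 1 (5.88% against 6.4%). At least 2 recurrent last exons were found in 20 genes, or 44.4%, against 24.6%. All intervals here cover counting error only, and genes are not replicates of a condition.

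These shares were higher among genes with more isoforms, and among genes of like isoform number several of the differences turned round. For 20 large-subunit genes and 1150 annotated genes with 15 to 39 isoforms, several recurrent first exons were found in 90.0% against 76.3%, and an alternative 5' site in 70.0% against 61.9%. In the same range the large-subunit genes lay below the rest for skipped exons (60.0% against 75.4%), alternative 3' sites (65.0% against 75.6%) and retained introns (20.0% against 31.6%). With 5 to 14 isoforms (18 and 2923 genes) the share with several first exons was 61.1% against 39.6%. There the skipped exons (27.8% against 29.5%), alternative 3' sites (33.3% against 29.6%) and retained introns (11.1% against 10.2%) lay close to the background, and alternative 5' sites were at 16.7% against 20.7%. Several recurrent last exons were at 65.0% against 58.1% in the upper range and 27.8% against 28.6% in the lower. No intervals were computed within these ranges, which hold few large-subunit genes, so whether the turned differences exceed counting error is not known. The part of isoform number in these shares was not tested beyond these ranges. Exon number was not matched within them. Over all isoform numbers the large-subunit genes had a median of 5 exons per isoform against 8, and 5 core introns against 8. A gene with fewer exons offers fewer places for these kinds of variation, and the part of exon number was not tested.

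The small-subunit genes showed several first exons in 53.8%, a skipped exon in 30.8%, alternative 5' and 3' sites in 42.3% and 46.2%, and a retained intron in 7.69%. The mitochondrial ribosomal genes stood at 14.6%, 4.88%, 2.44%, 2.44% and 0% for the same kinds.

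**Figure D2:**
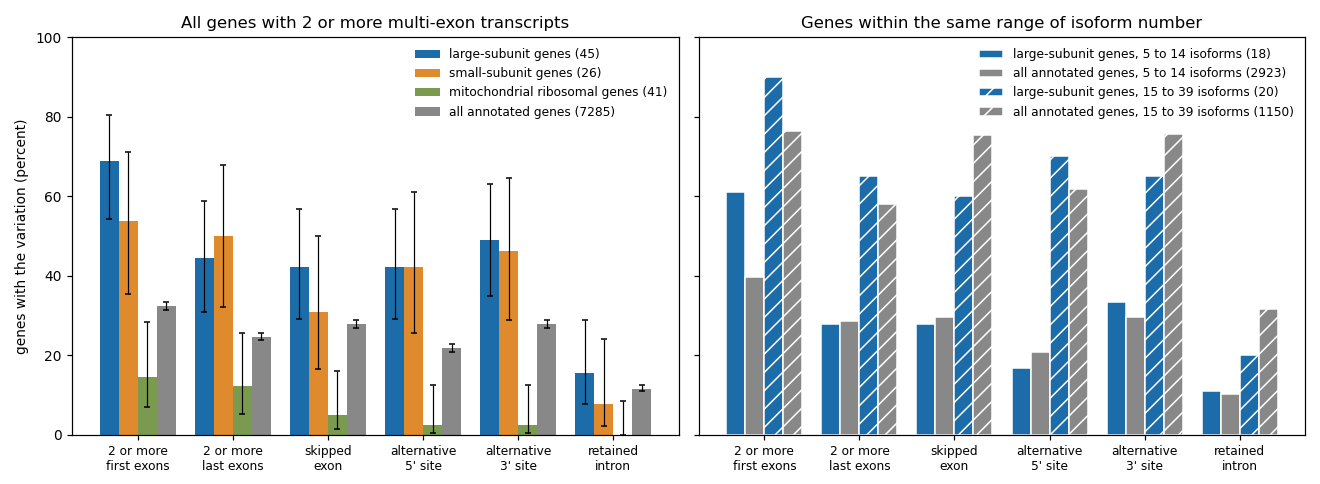
Bars give the percent of genes (vertical axis, from 0) with each kind of recurrent variation, for 4 sets of genes on the left with Wilson 95% intervals, and on the right for large-subunit and all annotated genes with 5 to 14 (plain) or 15 to 39 (hatched) isoforms. Several first exons stand at 68.9% against 32.5% on the left and above the background in both ranges on the right, whereas skipped exons and retained introns with 15 to 39 isoforms lie below it.

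By kinds of recurrent variation, only rpl4 and rpl7a showed all 5 of several first exons, retained intron, skipped exon, alternative 5' site and alternative 3' site. They had 39 and 50 isoforms, and each kind was more frequent among genes with more isoforms. A further 8 genes showed 4 kinds, among them rpl3, rpl13, rpl13a, rpl17, rpl27a, rpl37 and rplp0. None was seen at 8 genes, namely rpl3l, rpl14, rpl22, rpl23a, rpl32, rpl34, rpl38 and rpl39. Of these, rpl14 and rpl39 had 2 isoforms and rpl34 and rpl38 had 3. That is too few for 2 forms held by 2 transcripts each, so no kind could be called there. Kinds per gene were not counted over all annotated genes, so nothing particular to the family is read from these counts.

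The 45 genes held 123 recurrent first exons. The gene rpl13a had 7, while rpl3, rpl13, rpl15 and rpl27a had 6 and rpl7a, rpl11, rpl29 and rpl37 had 5. There were 4 at rpl6, rpl24, rpl26, rpl35 and rpl37a, and 3 at rpl7, rpl17, rpl21, rpl35a and rplp0. There were 2 at 12 genes, among them rpl4, rpl5, rpl8, rpl12, rpl23, rpl28, rpl31, rpl36, rpl36a, rplp1 and rplp2. Of the rest, 13 genes had 1 and rpl22 had none.

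Where a gene had several, the first exons lay near each other and often led to 1 acceptor, the first base of the exon that follows. Over the 31 genes they spanned a median of 1520 bases, against 6526 over all annotated genes with several, and in 13 genes (41.9%, against 20.5%) they lay within 1000 bases. In 25 of the 31 genes (80.6%, against 66.0%) at least 1 pair had an acceptor in common, and in 18 (58.1%, against 44.0%) all those of a scaffold did. An acceptor counted as common if at least 1 transcript of each first exon used it. The 14 small-subunit genes with several showed the same pattern, so it was not particular to the large subunit. Their first exons spanned a median of 1085.5 bases and lay within 1000 bases in 42.9%. At least 1 pair had an acceptor in common in 100% of them, and all did in 71.4%. The first exon with most transcripts held a median of 41.7% of the transcripts of its gene over the 31 genes, against 54.5% over the annotated genes with several. In the range of 15 to 39 isoforms the span was 1288.5 against 8744.5 bases and all shared an acceptor in 72.2% against 39.2%. In the range of 5 to 14 it was 763 against 3926 bases, and all shared an acceptor in 45.5% against 52.3%.

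How many first exons count as separate depends on how near they lie. With first exons within 50 bases of each other joined, 26 genes (57.8%, against 30.5%) still had several, and within 200 bases 21 genes (46.7%, against 29.0%) did. In the range of 15 to 39 isoforms the joined shares were 80.0% against 72.3% at 50 bases and 60.0% against 68.2% at 200 bases, so the share at 200 bases lies below the background. With 5 to 14 isoforms they were 44.4% against 36.6% and 38.9% against 34.6%. Of the 123 recurrent first exons 24 were 10 bases long or less (19.5%, against 7.52%), and without them 26 genes kept several, against a background of 28.7%.

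At rpl11 several recurrent first exons abut. Its protein and that of rpl5 bind the 5S ribosomal RNA, and the free complex can hold back Mdm2, the protein that degrades p53. Positions here count from 1 on scaffolds whose genome build the sources do not name. On the minus strand of scaffold GL172709, 5 recurrent first exons lay between positions 676377 and 676921 and all spliced to the acceptor at 675760. From the 5' end they were 84, 63, 141, 9 and 56 bases long and opened 3, 8, 6, 2 and 3 of the 25 transcripts. The leading 4 abut, with 0 bases between them, and 192 bases separate the last. No first exon holds a majority there, the largest having 32.0% of transcripts. Abutting recurrent first exons were also found at rpl17 and rpl29, in all 3 genes or 9.68% of the 31, against 2.78%. Among the 14 small-subunit genes with several first exons the share was 21.4%.

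In rpl13, 6 first exons lay between 2602625 and 2603154 on the plus strand of scaffold GL172702, all leading mainly to 2603695, and opened 6, 4, 2, 2, 2 and 2 of 22 transcripts. In rpl15 the 6 first exons opened 2, 3, 2, 2, 5 and 2 of 20 transcripts, and the farthest lay 2767 bases upstream of the next. In rpl27a they opened 11, 2, 2, 4, 3 and 2 of 27. The models of these genes thus began in several first exons, and whether transcription starts in each was not tested.

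The gene rpl13a had 1 first exon of 102 bases with 74 of 91 transcripts (81.3%), and each of the other 6 had 2 or 3. In rpl4 a first exon of 270 bases opened 36 of 39 transcripts, and 2 transcripts began 143 bases downstream of it. In rpl36a overlapping first exons that together cover 294 bases opened 21 of 25. At these 3 genes 1 first exon, joined from overlapping ones, opened most of the transcripts. Lengths are of the joined exon, and single models can begin in a shorter one. Over all isoforms the median first exon was 26 bases at rpl13a and 13 at rpl36a.

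The gene rpl3 had a first exon of 84 bases with 24 of 39 transcripts. A further first exon of 39 bases, with 2 transcripts, lay 34776 bases upstream of it at 730779 to 730817 on scaffold GL172705 and spliced to the same acceptor at 766419. At rpl35, an exit tunnel gene, the 5' most recurrent first exon lay 47053 bases upstream of the next and did not share its acceptor. Whether that exon belongs to rpl35 or to a neighbouring gene was not tested.

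In 6 genes no recurrent first exons shared an acceptor, namely rpl5, rpl12, rpl23, rpl31, rpl35 and rplp1. At rpl5 the leading first exon held 16 of 21 transcripts and the other, with 2, lay 8213 bases downstream, inside the gene. The gene had 2 models of class o (other exon overlap). Without models of that class 30 of the 45 genes had several first exons, and rpl5 was not among them. First exons that lay inside a gene could be very short and still recur. In rplp0 a 9-base first exon 2257 bases downstream of the previous one opened 9 of 24 transcripts, and in rpl7a a 9-base first exon opened 12 of 50. Over the family 9 of the 123 recurrent first exons (7.32%, against 9.31%) overlapped an internal exon of another transcript.

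**Figure D3:**
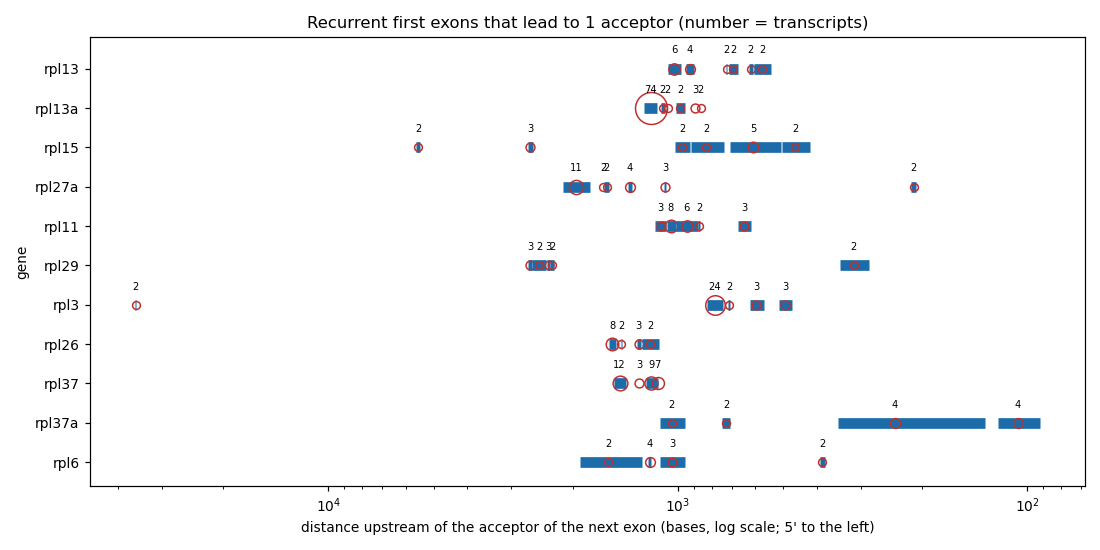
For the 11 genes with at least 4 recurrent first exons that lead mainly to 1 acceptor, blue bars give the position of each first exon as its distance upstream of that acceptor (horizontal axis, bases, log scale, 5' to the left), and circles and numbers give the transcripts that start in it. The leading 4 first exons of rpl11 abut, rpl13a has 1 first exon with 74 transcripts, and rpl3 has 1 far to the left, 34776 bases upstream of the next.

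Recurrent retained introns, those that at least 2 transcripts spliced and at least 2 held within an exon, numbered 7, each at a different gene. In rpl4 a 79-base intron was spliced in 4 transcripts and held in 26, always within the first exon. In rpl7a a 69-base intron was spliced in 4 and held in 21. In rpl13 a 73-base intron was spliced in 3 and held in 16. In these 3 genes most models that span the intron hold it as exon.

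The same holds for rpl7, with 89 bases spliced in 2 transcripts and held in 11, and for rpl36, with 57 bases spliced in 2 and held in 11. The other 2 introns were held as often as spliced. In rplp0, the base protein of the stalk, a 60-base intron was spliced in 12 transcripts and held in 12, always within the long last exon, at 4972585 to 4972644 on scaffold GL172653. In rpl37 a 632-base intron was spliced in 2 and held in 2, all in models that begin upstream of the other recurrent first exons.

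So 5 of 7 were held more often than spliced (71.4%, and 72.6% over all 1807 recurrent retained introns). The median length was 73 bases against 97, 6 of 7 were within 100 bases (85.7%, against 51.5%) and 3 of 7 had a length divisible by 3 (42.9%, against 45.3%). Another 10 introns were held by at least 2 transcripts and spliced by 1, 3 of them at rpl13.

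Retention of the family's core introns was seen at 2 of 273, those of rplp0 and rpl37. A recurrent retained core intron was thus present in 2 of 45 genes (4.44%, against 2.94% of all annotated genes). Counting core introns held by any transcript, the family lay below the background instead, with 0.733% of its core introns against 1.12%, and 4.44% of its genes against 9.16%. In the frog Xenopus laevis the protein of rpl4, there called L1, is known to hold back the splicing of introns of its own transcript. None of the 9 core introns of rpl4 was held in any of its 39 multi-exon transcripts here. An intron that most spanning transcripts hold cannot be core by definition. The 79-base intron of rpl4, spliced in 4 transcripts and held in 26, is thus outside this count, which cannot show that rpl4 is free of retention. In human cells the protein of rpl3 acts on the splicing of its own transcript, and in the nematode Caenorhabditis elegans that of rpl12 does. No retained intron was found at rpl3 or rpl12, which covers retention of whole introns alone. At rpl3, 1 recurrent alternative 5' site and 3 recurrent alternative 3' sites were found, and at rpl12 1 recurrent alternative 5' site. Whether these sites relate to the action of the 2 proteins on splicing was not tested. PolyA-selected libraries and models of median 695 bases stand behind these counts, and transcripts with an unspliced intron that were not assembled could not be counted.

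**Figure D4:**
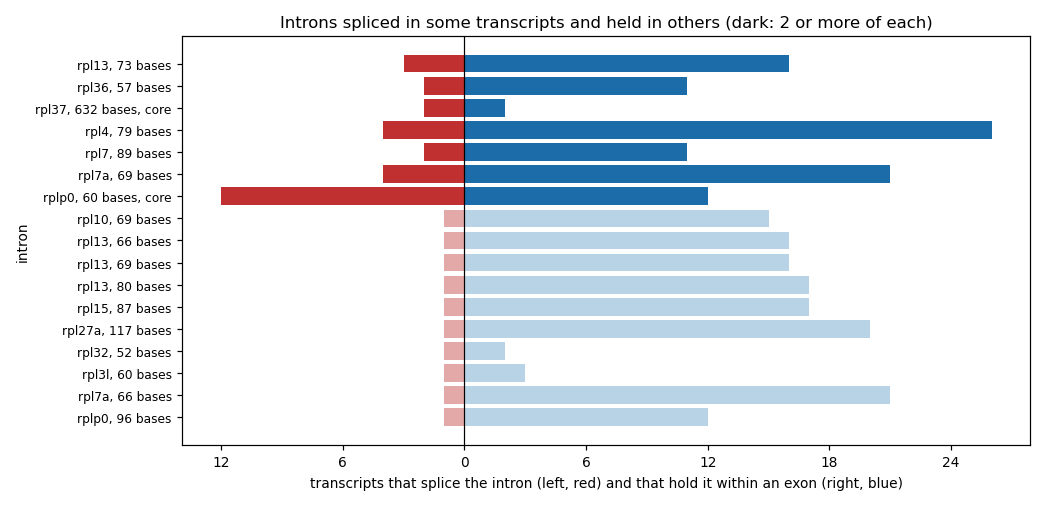
Each bar pair is 1 intron (vertical axis, with its length), with the number of transcripts that splice it to the left and the number that hold it within an exon to the right; dark bars mark the 7 recurrent ones, and "core" marks introns spliced by at least 50% of spanning transcripts. Only rplp0 (12 and 12) and rpl37 (2 and 2) are balanced, and the others are held in more transcripts than splice them.

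Recurrent skipped exons numbered 50 at 19 genes when every pair of exon ends counts. At rpl3, 4 of them differed in place: exons of 136 and 120 bases were included in 22 and 21 transcripts and skipped in 6 and 4, a further exon of 136 bases was included in 2 and skipped in 16, and 1 of 96 bases was included in 2 and skipped in 2. At rpl7a an 80-base exon was included in 21 and skipped in 12. At rpl13a a 102-base exon was included in 60 and skipped in 10.

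In the 5S complex, a 132-base exon of rpl11 was included in 12 transcripts and skipped in 7. In the stalk, a 186-base exon of rplp0 was included in 10 and skipped in 3, and a 115-base exon of rplp1 was included in 6 and skipped in 2. In the exit tunnel gene rpl17 a 41-base exon was included in 15 and skipped in 6. In rpl36a, whose protein lies at the site where transfer RNA leaves, a 146-base exon was included in 5 and skipped in 9.

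An exon whose length is divisible by 3 can be left out of coding sequence without a shift of the reading frame. This was so for 14 of the 50 skipped exons, or 28.0% (Wilson interval 17.5 to 41.7), against 53.2% of 4986 over all annotated genes. With overlapping variants of 1 exon counted as 1, it was 10 of 27, or 37.0% (21.5 to 55.8), against 54.7%, a value within that interval. The count without rpl13a, which alone gave 12 of the 50 variants, was 10 of 38 or 26.3%. In the range of 15 to 39 isoforms the merged share was 44.4% (24.6 to 66.3) against 54.2%. The small-subunit genes stood at 45.7% of 35. Coding ends were not analysed here, so which of these exons code for protein is unknown.

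The 2 most used sites of a recurrent set lay 1 to 109 bases apart at acceptors and 1 to 230 bases apart at donors. The largest clusters were at rpl13a, with 10 recurrent acceptors within 66 bases and 7 within 38. At rpl36a 6 donors lay within 5 bases, at rpl4 5 acceptors lay within 4 bases, and at rpl37 4 donors lay within 30 bases. Those of rpl36a and rpl4 thus fell on consecutive bases. No sequence was read, so whether each position in such a cluster is a true splice site was not tested. At rplp0 4 acceptors lay within 50 bases.

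Paired sites differed in how evenly they were used. The rpl13a acceptor at 222413 on scaffold GL173345 was used by 65 transcripts and the next, 9 bases away, by 5. At rpl3 acceptors 30 bases apart were used by 22 and 8. Closer to balance were the donors of rpl27a, 9 bases apart, with 15 and 8 transcripts, and those of rpl36a, 13 bases apart, with 9 and 7.

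A distance of 3 bases between acceptors, which keeps the reading frame, was the commonest of those from 1 to 12 bases over all annotated genes. Of the 39 recurrent pairs of the family (the 2 most used acceptors of a donor), 1 was 3 bases apart, at rplp1 with 6 and 2 transcripts. That is 2.56% (0.454 to 13.2), against 20.6% of 4267 pairs. Less used sites of a set do not enter this measure, in the family or in the background. At rpl7a recurrent acceptors at 18099 and 18102 lay 3 bases apart, but the pair counted was 18099 and 18101. The low share therefore does not mean that acceptors 3 bases apart were absent from these genes. Distances of 2 and of 6 bases were found in 5 pairs each (12.8%). The median distance was 12 bases against 7, and 15 distances were divisible by 3 (38.5%, against 52.2%).

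In the range of 15 to 39 isoforms 0 of 25 pairs were 3 bases apart (0 to 13.3%), against 23.4%, and in the range of 5 to 14 isoforms 1 of 6 was (16.7%, 3.01 to 56.4), against 22.2%. The small-subunit genes had 3 of 24 (12.5%, 4.34 to 31). For 5' sites 0 of 30 pairs of the large-subunit genes were 3 bases apart (0 to 11.4%), against 5.88%, and the small-subunit genes had 6 of 19.

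**Figure D5:**
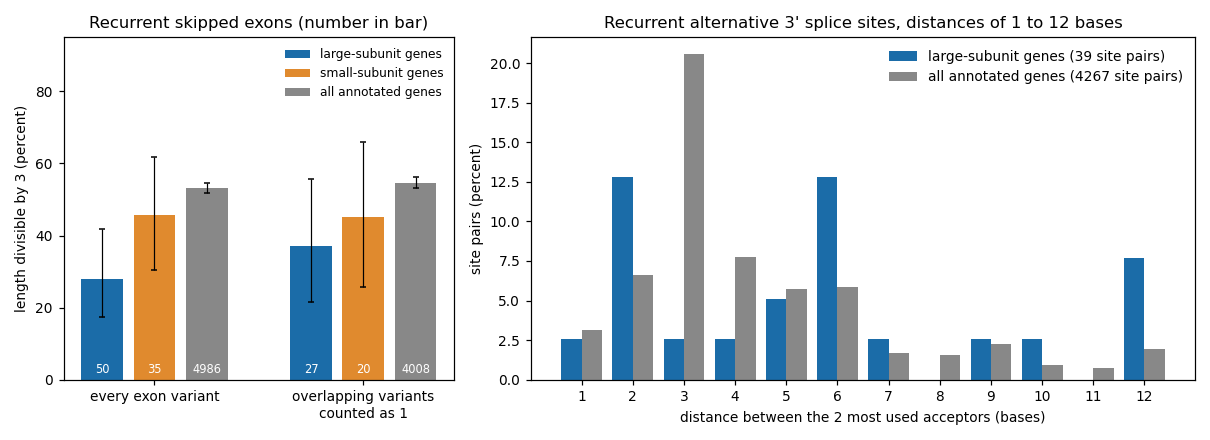
On the left, bars give the percent of recurrent skipped exons with a length divisible by 3 (vertical axis, Wilson 95% intervals, number of exons in the bar), and on the right the percent of recurrent alternative acceptor pairs (vertical axis) at each distance from 1 to 12 bases (horizontal axis). The large-subunit genes stand at 28.0% against 53.2% on the left, and at 37.0% against 54.7% with variants merged; on the right the tall bar at 3 bases (20.6%) belongs to all annotated genes, where the large-subunit genes have 2.56%.

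By role, the 4 genes of the stalk and its base had 11 to 24 isoforms. All 4 had several recurrent first exons, beside 68.9% of the whole family. Of all annotated genes, 76.3% had several with 15 to 39 isoforms, the range of rplp0 and rpl12. With 5 to 14 isoforms, the range of rplp1 and rplp2, 39.6% had several. Nothing particular to a role is read from such small counts. The 5S pair rpl5 and rpl11 had 21 and 25 isoforms, and both had several first exons, rpl5 only with its models of class o counted. The 9 genes of the exit tunnel and its rim ranged from 2 (rpl39) to 39 (rpl4), and 5 had several first exons. The 5 genes of the transfer RNA sites ranged from 5 (rpl8) to 39 (rpl3), and 3 had several. The gene rpl24, whose protein bridges the subunits, had 17 isoforms on 2 scaffolds and 4 recurrent first exons. Of the genes mutated in human Diamond-Blackfan anaemia, an inherited failure of red cell production, the 5 listed for this description (rpl5, rpl11, rpl15, rpl26 and rpl35a) had 13 to 25 isoforms; the list is not complete. Neither rpl3l nor rpl7l1 had several, and rpl22l1 had 1 isoform alone.

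Some assembled loci joined neighbouring genes. Of the 46 genes 6 (13.0%, against 8.41%) lay in an assembled locus that also held another annotated gene, among them rpl15 with ube2e1 and ube2e2, rpl11 with lypla2, rpl37 with prkaa1, rpl3l with rps2, and rpl22l1 with eif5a. In RefSeq each of these partners lies within 3 genes of its large-subunit gene. At rpl11, 6 of 25 isoforms had 13 to 20 exons, beside a median of 6. At rpl35, whose locus held no other gene annotated in the catalogue, 3 of 13 isoforms had 26 exons. RefSeq lists rabepk, golga1 and arpc5l just before rpl35, and wdr38, olfml2a and nr6a1 just after it. Whether the long rpl35 models hold exons of these neighbours was not tested. A transcript that runs through neighbouring genes and models joined by the assembler cannot be told apart here.

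Transcripts that overlap an exon on the opposite strand (class x), spliced or not, were found at 13 of the 46 genes (28.3%, against 24.2%). There were 26 of them, all with at least 2 exons, and 8 crossed the 5' end of the gene, 8 the 3' end, 2 both ends and 8 neither. The gene rpl10 had 4, 3 of them across its 5' end, and rpl27 had 4 across its 3' end. A further 4 opposite-strand transcripts of class s, in which an intron overlaps an intron of the gene, lay at rpl4, rpl19 and rplp0. They are not part of the share above, and their share over all annotated genes was not computed.

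In the RefSeq annotation of assembly UCB_Xtro_10.0, 16 of the 48 protein-coding large-subunit genes there (33.3%) had a snoRNA gene inside them, 41 in all, against 0.334% of 21826 protein-coding genes. The small-subunit genes stood at 29.0% and the mitochondrial ribosomal genes at 0%. The largest numbers were 6 at rpl4, 5 at rpl17 and 4 at rpl7a and rpl23a. Of these 4 hosts rpl4, rpl17 and rpl7a were among the 10 of 46 genes with the most isoforms, and rpl23a, with 6 isoforms, was not. These 4 are only those of the 16 hosts with the most snoRNA genes. Whether hosting goes with isoform number was not tested.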

How the data were processed

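PolyA-selected, strand-marked libraries were sequenced, per the labels' protocols. Bowtie, TopHat and Cufflinks were used, per the submitters' processing notes; the versions, build and annotation behind the catalogue are not stated in these sources. The authors deposited 1 transcript catalogue over all libraries. The authors' column headed FPKM, as deposited, is a score written by the assembler, called relative weight here; it never exceeds 1 in assembled transcripts and is not an abundance. The deposited coverage is a signal and was not used here, and the deposited lengths and exon ends (other values) are in bases. Depth is unknown, so no precision follows from it.

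Sense models were those of class =, j or o. Positions count from 1. First exons that overlap were joined. A skipped exon lies between a donor and acceptor that another transcript joins directly. A retained intron lies wholly inside an exon. Alternative sites share the opposite end of the intron. The event calls were checked on artificial gene models with known answers; the frame, spacing and core intron measures were not. Python 3.11.15, NumPy 2.4.6, SciPy 1.17.1 and Matplotlib 3.10.9 were used.

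The genes described by name were to be the 10 with the most isoforms, all with several recurrent first exons or a recurrent retained intron, all present only as annotated models, the paralogs, and rpl3, rpl4, rpl12 and rpl30, the last not analysed here. Members and lists were chosen with earlier results of these data known. The isoform ranges, core introns, last exons, joining of near first exons, short first exons, merged exon variants, frame, 3-base spacing, site clusters and snoRNA hosts were chosen after values were seen, and frame and spacing were picked out from among many measures computed. Other genes and exons were named as examples after their values were seen. RefSeq (UCB_Xtro_10.0) matched all 46 symbols and served for names and neighbours. Alternatives were support by 1 or 3 transcripts, transcripts of relative weight 1, assembled transcripts alone, loci of 1 gene, classes = and j, no paralogs, and stricter first exon and retention rules. Some items are not reported here by name, and 1 gene is not drawn. No sequence is printed, because no genome was used here.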

Additional observations from a re-analysis of the deposited data

How the results depend on the processing

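No value rests on replicates, and depth per gene is unknown, so how far the number of reads sets the number of isoforms could not be measured. No paired analysis was possible because the catalogue pools all samples and no result comes from a test. Of 53 alternatives 38 moved their value by no more than 1.5 times, or kept a share within its interval, and 15 did not. Some could hardly move a value: 803 of the 805 sense models were assembled isoforms, so assembled transcripts alone gave the same family values. Gene counts were compared as counts, although the number of genes differed between settings. This tally is therefore no measure of how robust the results are.

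With 1 transcript enough for each form, 12 genes had a retained intron (background 28.8% of genes), 29 a skipped exon (57.9%), 37 an alternative 5' site (49.9%) and 36 an alternative 3' site (57.2%), of 45. For retained introns the family share, 26.7%, is below that background. With 3 transcripts needed, 4 had a retained intron (5.97%), 12 an alternative 5' site (12.1%) and 9 an alternative 3' site (17.1%). Among transcripts of relative weight 1 alone the median was 6 isoforms over 37 genes (3 over all), and of 34 genes 15 had several first exons (21.9%), 2 a retained intron (5.88%, below the background of 6.4%), 10 a skipped exon (17.6%), 8 an alternative 5' site (12.7%) and 9 an alternative 3' site (17.5%). With splice sites required at both ends of the holding exon, 4 genes kept a retained intron (6.95%). With 3 transcripts for each site, 0 of 13 acceptor pairs, or 0%, were 3 bases apart (25.4%).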
